A study of Homo sapiens with 8 samples.

Results

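Neural cells grown as monocultures in a 3-D format were compared with monocultures grown in a 2-D format, both made from H1, a widely used line of human embryonic stem cells. The cells were those whose names begin with 3DMono or 2DMono, which gave 11806 of the 43693 cells in the matrix: 6964 3DMono cells in 6 tags and 4842 2DMono cells in 6 tags. A tag is the culture name carried by each cell, and within each format 2 tags are named Vehic, 2 AcDop and 2 AcMor. The labels list dopamine, cocaine, morphine and untreated as the treatments of the whole series without defining these tag names, so the names are used here as they stand. RNA was measured by split-pool barcoding of fixed cells, in which every cell gets its barcode over several rounds of mixing, and all 12 tags were present in each of the 8 sublibraries. All cultures share the 1 line, and nothing in the labels says that the tags came from separate cultures, so p-values measure the spread between these tags, which may be technical. The labels describe papain dissociation of 2 to 3 organoids that were first broken with a razor, and the growth format cannot be told apart from differences in handling between formats.

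Counts per tag ranged from 4693413 to 58777178, in 317 to 1959 cells. The median count per cell, averaged over tags, was 12660 ± 4649 (SD, n = 6) in 3DMono and 12600 ± 4687 in 2DMono. The mitochondrial share of counts was 2.46% ± 0.561 and 3.33% ± 0.973 (SD, n = 6), with the highest value, 5.14%, in 2DMono Vehic 1, also the most deeply counted 2DMono tag. Cells with neuronal markers made up 36.2% ± 8.59 of 3DMono and 31.0% ± 9.86 of 2DMono cells, and cells with radial glia markers 6.03% ± 4.22 and 6.45% ± 3.79 (SD, n = 6). In exact two-sided permutation tests within treatment over 216 arrangements, none of 8 such measures had an adjusted p below 0.711, with 0.00926 the smallest p this design allows. SYT1, a synaptic vesicle gene of neurons, had a count in 77.6% of 3DMono and 85.6% of 2DMono cells, but also in 48.5% and 67.6% of the progenitor-marker cells described below, so that share is no measure of how many cells are neurons. Of the 8 pluripotency genes 3 passed the filter on low counts and none was called. Skeletal muscle genes summed to 2671 CPM (counts scaled to a common library total) in 3DMono Vehic 2 and 453 in 2DMono AcMor 2, against 35.5 to 165 and 40.9 to 63.9 CPM in the other tags of those formats.

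Cells spread on a flat, stiff surface pull on focal adhesions and actin bundles, and this tension lets the co-activators YAP and TAZ enter the nucleus and switch on genes through TEAD factors. Cells in an organoid instead contact other cells and their own matrix on all sides. Early forebrain identity is set by secreted signals, among them BMP, WNT, FGF and Hedgehog ligands, and radial glia, the progenitors of the cortex, give rise to intermediate progenitors and then to neurons.

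Formats differed widely. Of 21862 genes tested with all cells of a tag summed, 8297 differed in edgeR's quasi-likelihood test at an adjusted p of 0.05, a share of 38%. Of all genes tested, 17.5% were called higher and 20.4% lower in 3DMono, and 12% were lower with tag values that did not overlap between formats. Large changes were more often losses in 3DMono: 170 genes were higher and 660 lower by at least 4-fold. The median log2 fold change over all genes was 0.03. In bulk sums such as these, fewer cells of a type and less RNA per cell cannot be told apart. All fold changes below are 3DMono over 2DMono on the log2 scale, and levels are in CPM. Their standard error (SE) was derived from the test, as the absolute log2 fold change divided by the square root of its F statistic. Adjusted p-values are from edgeR with Benjamini-Hochberg adjustment over all genes.

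Targets of YAP and TAZ were mostly lower in 3DMono. The list of 13 genes also holds the co-activator genes YAP1 and WWTR1 and the DNA-binding partner TEAD1. Of the 13, 10 fell and none rose, all 10 with no overlap between formats, and the list's median log2 fold change was -1.55. Without those 3 genes, 8 of 10 fell and none rose. The upstream 250 bases of the genes with the most matches to the TEAD core GGAATG are shown because this is the letter pattern by which YAP and TAZ reach DNA. Capitals mark matches on either strand.
CCN2: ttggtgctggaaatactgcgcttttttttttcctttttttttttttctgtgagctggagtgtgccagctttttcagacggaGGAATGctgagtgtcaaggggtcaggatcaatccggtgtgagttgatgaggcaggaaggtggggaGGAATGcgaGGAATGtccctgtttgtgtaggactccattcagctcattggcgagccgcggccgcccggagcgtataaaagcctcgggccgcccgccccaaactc
ANKRD1: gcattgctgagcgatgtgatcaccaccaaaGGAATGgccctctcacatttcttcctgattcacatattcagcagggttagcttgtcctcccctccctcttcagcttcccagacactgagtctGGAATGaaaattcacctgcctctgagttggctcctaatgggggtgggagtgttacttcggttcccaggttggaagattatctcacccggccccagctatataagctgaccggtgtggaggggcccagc
Both are RefSeq windows on GRCh38.p14, at chr6:131951373-131951622 and chr10:90921088-90921337, both on the minus strand and printed 5′ to 3′ toward the start site. The CCN2 window holds 3 matches, beginning 169, 104 and 95 bases before the start, and the ANKRD1 window 2, at 220 and 128 bases. The 10 list members matched have 14 windows, some genes having more than 1 start, and 6 of these 14 hold the pattern, which occurs in 11.9% of all 35116 windows. The 10 include YAP1, whose window is 1 of the 6 though the gene was not called, and WWTR1, whose windows hold 0 matches. AJUBA, AMOTL2 and AXL match at only 1 of their starts. A match is a description of letters and not a site shown to be bound.

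CCN2, a secreted matrix protein and a standard reporter of YAP activity, had 1.60, 3.5 and 5.01 CPM as lowest, median and highest value in 3DMono and 57.4, 128 and 263 in 2DMono. Every 2DMono tag lay far above every 3DMono tag (log2 fold change -5.49, SE 0.36, adjusted p = 1.71e-07). ANKRD1, a titin-associated ankyrin repeat protein and another target, ran from 0.542 to 3.00 CPM in 3DMono and from 3.15 to 18.1 in 2DMono (-2.96, SE 0.49, adjusted p = 0.000381). The calls on CCN2 and ANKRD1 were lost when only the Vehic tags, 2 against 2, were fitted. WWTR1, which encodes TAZ itself and is 1 of the 10 counted as lower, had 31.4 to 79.9 CPM against 149 to 334 (-2.33, adjusted p = 2.73e-07). YAP1 was not called, at 75.8 to 121 CPM against 74.5 to 152 (-0.29, SE 0.11, adjusted p = 0.0544). YAP1 passed the threshold when any 1 of 2DMono AcDop 1, AcMor 1 or Vehic 1 was left out.

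Genes of the contractile machinery moved in the same direction. Of 20 focal adhesion and contractile cytoskeleton genes tested, 17 fell in 3DMono and none rose (median -1.67). CALD1, caldesmon, which binds actin in stress fibres, had 70.6, 96.2 and 109.6 CPM as lowest, median and highest in 3DMono and 833, 1298 and 1561 in 2DMono (-3.73, SE 0.14, adjusted p = 4.4e-10). TAGLN, the actin-binding transgelin, ran from 1.83 to 2.46 against 17.2 to 77.7 CPM (-4.15, SE 0.35). ACTA2, smooth muscle actin, had 1.58 to 2.57 against 11.1 to 54.1 CPM (-3.38, SE 0.34). No value of these 3 genes overlapped between formats.

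Matrix genes fell in 12 of 19 tested cases, with 1 rise (median -1.04). FN1, fibronectin, ran from 54.3 to 215 CPM in 3DMono and from 410.4 to 1607 in 2DMono (-2.37, SE 0.45, adjusted p = 0.00154), a call that was lost with the Vehic tags alone. HSPG2, the basement membrane proteoglycan perlecan, had 18.7 to 34.5 against 91.4 to 252 CPM (-2.30, SE 0.23), and LAMB2, a laminin chain, 5.35 to 13.7 against 25.6 to 89.1 (-2.11, SE 0.29). The 1 member that rose was VCAN, the brain proteoglycan versican, with 554 to 897 CPM against 459.5 to 682 (0.48, adjusted p = 0.0117), and its tag values overlapped. Among the named genes with the lowest fold changes were ELN, the elastin gene (-5.27, SE 0.22), CD44, the hyaluronan receptor (-5.26, SE 0.23), and LTBP2, a microfibril protein (-4.85, SE 0.24). ELN had 2.24 to 4.74 CPM in 3DMono and 69.5 to 210.1 in 2DMono.

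**Figure D1:**
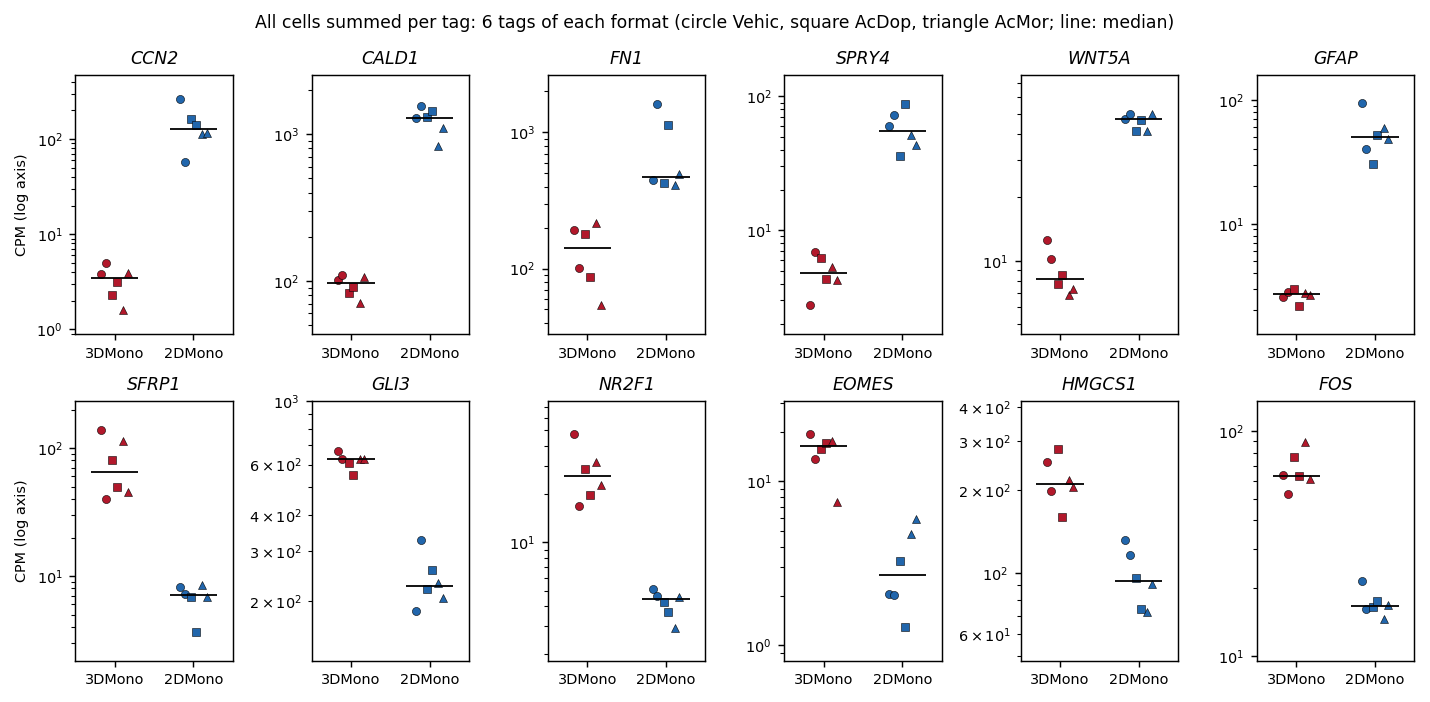
CPM (log axis) of 12 genes with all cells of a tag summed, in the 6 3DMono tags (red) and 6 2DMono tags (blue). Circles are Vehic, squares AcDop and triangles AcMor tags, and lines are medians. The top row holds genes lower in 3DMono, such as CCN2 with 3DMono values of at most 5.01 CPM, and the bottom row genes higher in 3DMono, such as FOS with 3DMono values of at least 52.5 CPM. In each panel the formats do not overlap.

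Mesenchymal marker genes moved with the matrix genes. Of 10 tested, 6 fell and 1 rose (median -0.74), and their summed level was 216 to 658 CPM in 3DMono tags and 683 to 1795 CPM in 2DMono tags. COL1A1, the main fibrillar collagen gene, had 39.1 to 125 CPM against 438 to 1374 (-3.22, SE 0.25, adjusted p = 4.88e-07). PDGFRB, a pericyte and fibroblast receptor, had 13.3 to 24.7 against 26.3 to 80.6 (-1.46, SE 0.24). TWIST1, a transcription factor of mesenchyme, went the other way, with 5.07 to 9.52 against 1.33 to 4.09 CPM (1.87, SE 0.27). The part of mesenchymal cells in the matrix and adhesion results of the summed tags was not tested, but COL1A1 and CALD1 are given below within progenitor-marker cells.

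Secreted signals differed by pathway. BMP and TGF-beta genes fell in 14 of 23 cases with 1 rise (median -1.14). GREM1, a secreted BMP antagonist, had 0.0729 to 1.00 CPM in 3DMono against 2.15 to 7.56 in 2DMono (-3.99, SE 0.49, a call lost with the Vehic tags alone). MSX2, a homeobox gene that BMP induces, had 0.415 to 0.911 against 6.36 to 11.7 CPM (-3.93, SE 0.20, adjusted p = 5e-09). The ligand gene TGFB1 was the member that rose (0.30, SE 0.10, adjusted p = 0.0266), at 38.7 to 45.1 against 28.8 to 42.9 CPM, and the call was lost without any 1 of 5 tags.

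FGF genes fell in 11 of 17 cases and rose in 3 (median -0.69). SPRY4, a Sprouty inhibitor of receptor signalling that FGF itself induces, had 2.77, 4.81 and 6.92 CPM as lowest, median and highest in 3DMono and 35.7, 55.6 and 87.5 in 2DMono (-3.56, SE 0.25, adjusted p = 1.65e-07). DUSP6, the ERK phosphatase induced in the same way, had 3.69 to 5.50 against 12.7 to 34.8 CPM (-2.26, SE 0.22), and SPRY1 2.51 to 9.59 against 15.0 to 28.1 (-1.97, SE 0.20). The 3 genes that rose were FGFR3 (2.11, SE 0.37, lost with the Vehic tags alone), a receptor of cortical progenitors, FGF9, a ligand (1.15, SE 0.13), and FGFR2, another receptor (0.70, SE 0.13). The receptor gene FGFR1 and the ligand gene FGF2, named here after their values were seen, were among the 11 that fell.

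WNT genes fell in 13 of 24 cases and rose in 4 (median -0.64). WNT5A, a ligand of the beta-catenin-independent branch, had 6.90 to 12.5 CPM in 3DMono and 41.3 to 49.6 in 2DMono (-2.40, SE 0.12, adjusted p = 5.35e-09). DKK2, a secreted modulator of the WNT co-receptor LRP6, had 9.47 to 17.7 against 58.2 to 186 CPM (-3.25, SE 0.23), and RSPO2, which strengthens WNT signals, 22.4 to 105 against 209 to 504 (-2.39, SE 0.25). SFRP1, a secreted WNT antagonist of cortical radial glia, went in the opposite direction, with 40.0 to 139 CPM against 3.66 to 8.54 (3.51, SE 0.34, adjusted p = 4.55e-06). The receptor gene FZD8 (2.80, SE 0.36) and the ligand gene WNT7B (1.66, SE 0.36) also rose, the last with overlapping tags. With the Vehic tags alone the calls on SFRP1 (adjusted p = 0.056) and WNT7B (adjusted p = 0.175) were lost.

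Hedgehog genes rose in 7 of 11 cases and none fell (median 0.58). GLI3, the repressor that shapes dorsal forebrain, had 553, 628 and 672 CPM as lowest, median and highest in 3DMono and 185, 226 and 327 in 2DMono (1.39, SE 0.12, adjusted p = 8.77e-07). GLI1, a readout of pathway activity, was low in both formats, at 1.91 to 3.00 against 0 to 1.29 CPM (1.38, SE 0.31, lost with the Vehic tags alone). The co-receptor gene GAS1 was called (1.25, adjusted p = 0.023), and the call was lost without 2DMono AcDop 1, 2DMono AcDop 2 or 3DMono AcMor 1 and with the Vehic tags alone. Notch genes were split, 4 higher and 4 lower of 13. The ligand gene JAG1 fell (-1.88, SE 0.19), whereas the ligand genes DLL1 (1.47, SE 0.22) and DLL3 (1.71, SE 0.22), which are turned on in newborn neurons, rose. Target genes went opposite ways: HES5 rose (1.48, SE 0.33), and HES1 fell, at -1.93 to -1.72 when any 1 tag was left out. The calls on DLL1 and HES5 were lost with the Vehic tags alone, and that on HES1 in 0 of 21 alternatives. Retinoic acid genes were split as well, 5 higher and 4 lower of 14, with the retinol transporter gene STRA6 higher (2.17, SE 0.33) and the receptor gene RARA lower (-1.19, SE 0.21).

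**Figure D2:**
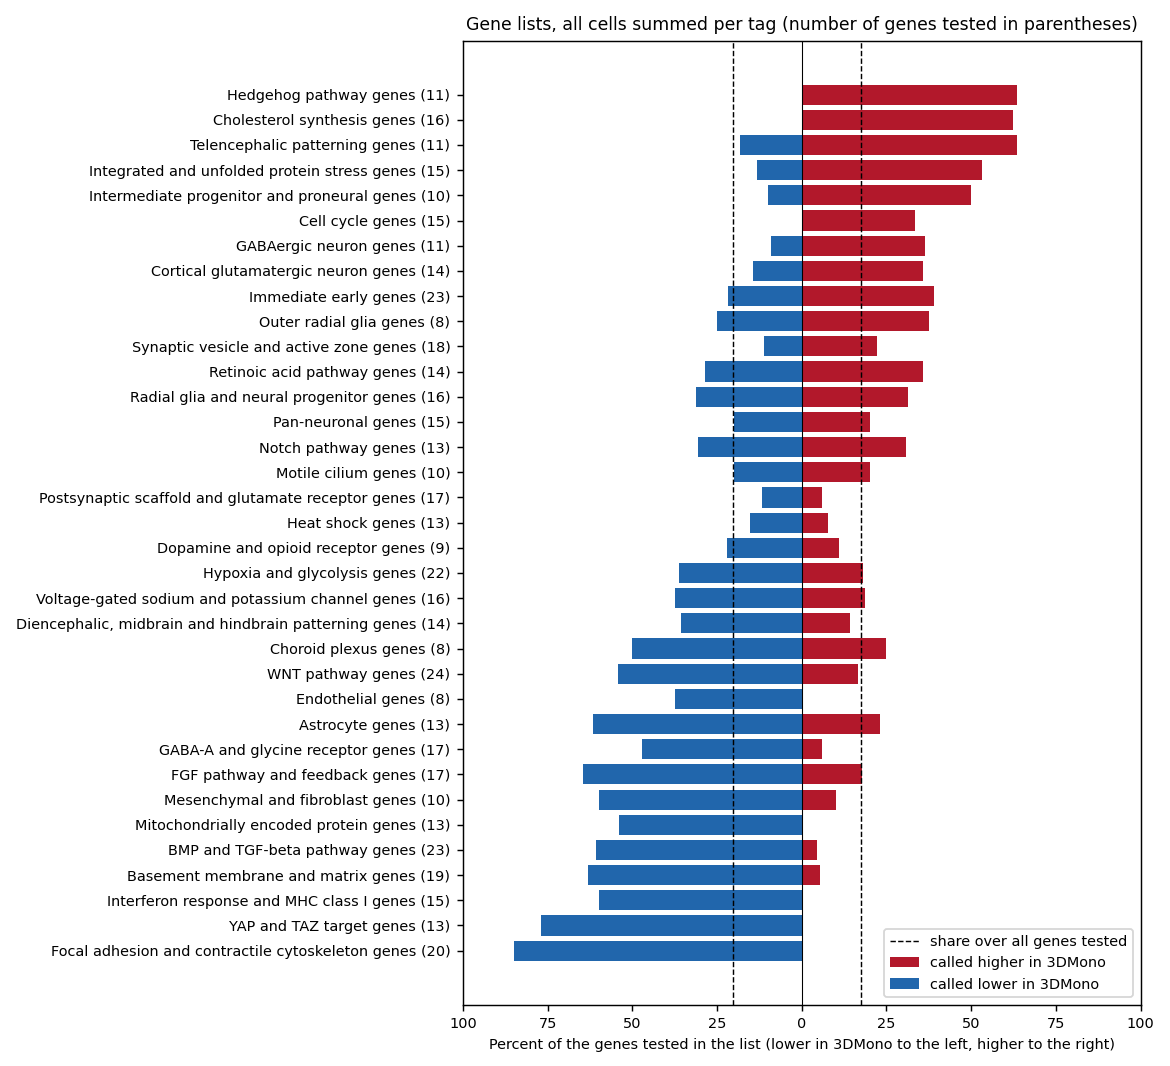
Share of the tested genes of each list called lower (blue, left) or higher (red, right) in 3DMono, in percent, for lists with at least 8 genes tested. Dashed lines mark the shares over all genes tested, 20.4% lower and 17.5% higher. Adhesion and YAP genes stand at the bottom with 17 of 20 and 10 of 13 lower, and Hedgehog and cholesterol synthesis genes at the top with 7 of 11 and 10 of 16 higher.

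Among metabolic genes, cholesterol synthesis stood higher in 3DMono, with 10 of 16 genes up and none down (median 0.45). HMGCS1, which makes the substrate of the pathway's rate-limiting enzyme, had 159 to 280.5 CPM against 71.9 to 131 (1.21, SE 0.15, adjusted p = 2.19e-05). IDI1, which isomerises the isoprenoid building block, had 36.4 to 52.4 against 19.4 to 29 (0.95, SE 0.11), and SQLE, squalene epoxidase, 65.8 to 91.3 against 30.8 to 66.2 with slight overlap (0.81, SE 0.14, lost with the Vehic tags alone). The sterol element TCACCCCAC was in 1 of the 16 windows of the 11 matched members and in 0.362% of all windows. That window belongs to SREBF2, a member not called, and those of HMGCS1 and IDI1 held 0 matches. Hypoxia and glycolysis genes gave no common direction, 4 higher and 8 lower of 22 (median -0.04). The glucose transporter gene SLC2A1 (-1.86, SE 0.24) and hexokinase HK2 (-1.67, SE 0.27) fell, while PFKFB4 (0.75, SE 0.21) and PDK1 (0.69, SE 0.20), 2 other targets of the hypoxia factor HIF1, rose, both calls being lost with the Vehic tags alone. Of the 13 protein genes encoded by mitochondria, 7 fell and none rose (median -0.72). Stress response genes rose in 8 of 15 cases and fell in 2, among them DDIT4 (1.59, SE 0.34, overlapping tags, lost with the Vehic tags alone). Interferon and MHC class I genes fell in 9 of 15 cases and none rose, among them MX1 (-2.54, SE 0.36) and HLA-C (-1.27, SE 0.35), each below 10 CPM in every tag.

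Immediate early genes, which cells transcribe within minutes of a stimulus, moved in both directions. Of 23 tested, 9 rose and 5 fell (median 0.44). Summed over the list, 3DMono tags had 698 and 566 CPM in AcDop, 606 and 508 in AcMor and 424 and 398 in Vehic. The 2DMono tags had 259 to 308 CPM. Whether this sum depended on the treatment name was not tested. The upstream 250 bases of EGR1 are shown because EGR1 rose and its window carries the serum response element, the CArG box, here in capitals.
EGR1: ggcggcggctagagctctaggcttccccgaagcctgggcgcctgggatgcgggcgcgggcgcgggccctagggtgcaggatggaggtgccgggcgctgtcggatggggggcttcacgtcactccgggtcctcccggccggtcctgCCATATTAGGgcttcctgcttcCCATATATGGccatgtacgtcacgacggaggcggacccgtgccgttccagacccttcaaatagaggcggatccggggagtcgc
This RefSeq window lies on GRCh38.p14 at chr5:138465229-138465478 on the plus strand, with CArG boxes 105 and 83 bases before the start. The 19 matched list members have 24 windows, of which 2 hold the box, against 1.16% of all windows. EGR1 had 109, 216 and 278 CPM as lowest, median and highest in 3DMono and 42.9, 53.3 and 75.8 in 2DMono (1.78, SE 0.16, adjusted p = 8.84e-07). FOS had 52.5 to 89.0 against 14.6 to 21.6 CPM (1.96, SE 0.14), and FOSB 5.83 to 13.6 against 0.889 to 3.98 (1.89, SE 0.28). The AP-1 members FOSL1 (-2.10, SE 0.18) and FOSL2 (-2.43, SE 0.17) and the growth factor response gene IER3 (-3.66, SE 0.40) were lower in 3DMono, with no overlap. Dissociation can itself induce early genes, and its part in this result was not tested.

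Astrocyte genes were mostly lower in 3DMono. Of 13 astrocyte genes 8 fell and 3 rose (median -1.39), and their summed level was 340 to 478 CPM in 3DMono and 554 to 719 in 2DMono. Those that rose were FGFR3, ALDOC and GLUL. GFAP, the intermediate filament of astrocytes, had 2.16, 2.70 and 3.00 CPM as lowest, median and highest in 3DMono and 30.3, 50.4 and 94.6 in 2DMono (-4.35, SE 0.23, adjusted p = 1.02e-08). ALDH1L1, a folate enzyme used as an astrocyte marker, had 0.436 to 1.09 against 11.8 to 15.9 CPM (-4.35, SE 0.20). AQP4, the water channel of astrocyte endfeet, was near 0 in both formats, at 0 to 0.182 against 0.202 to 3.14 CPM. Outer radial glia genes gave no common direction, with 3 of 8 higher and 2 lower (median 0.02), and of 16 radial glia genes 5 rose and 5 fell (median 0.29). The 3 outer radial glia genes that rose were HOPX (1.71, SE 0.21), the monooxygenase MOXD1 (1.69, SE 0.23) and PTN, the growth factor pleiotrophin, which had 343 to 731 CPM against 125 to 197 (1.52, SE 0.14, adjusted p = 1.79e-06). ITGB5, an integrin chain on the same list, fell (-2.77, SE 0.14).

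Intermediate progenitor and proneural genes rose in 5 of 10 cases and fell in 1 (median 0.66). EOMES, the defining factor of cortical intermediate progenitors, had 7.52, 16.5 and 19.3 CPM as lowest, median and highest in 3DMono and 1.29, 2.68 and 5.93 in 2DMono (2.34, SE 0.34, adjusted p = 0.000101). The proneural factors NEUROG2 (2.05, SE 0.42) and NEUROG1 (2.65, SE 0.48) rose with overlapping tags. Of 15 cell cycle genes 5 rose and none fell (median 0.27), with AURKB (0.95, SE 0.20) and CCNA2 (0.89, SE 0.22) among them, again with overlap, the call on CCNA2 being lost with the Vehic tags alone. MKI67, the usual proliferation marker, did not pass the test, at 128 to 178 against 116 to 172 CPM (0.02, SE 0.10, adjusted p = 0.914).

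Telencephalic patterning genes were mostly higher in 3DMono. Of 11 telencephalic patterning genes tested 7 rose and 2 fell (median 0.80), and of 14 diencephalic, midbrain and hindbrain genes 2 rose and 5 fell (median -0.20). Within the neuron-marker cells described below, 4 of 10 telencephalic genes were higher and 3 lower, and of 5 diencephalic, midbrain and hindbrain genes 2 were higher and 0 lower. NR2F1, which sets caudal and lateral areas of the cortex, had 16.9 to 47.6 CPM against 2.94 to 5.11 (2.76, SE 0.24, adjusted p = 9.41e-07), and EMX1, of the dorsal telencephalon, 16.9 to 42.9 against 6.58 to 12.9 (1.7, SE 0.22). SP8, a patterning factor of the rostral telencephalon, fell (-1.18, SE 0.18, lost with the Vehic tags alone). EMX2 was the other telencephalic member that fell. OTX2, a fore- and midbrain factor, had 6.58 to 14.9 against 27.1 to 54.8 CPM (-1.95, SE 0.18), and LMX1A, of roof plate and midbrain floor, 8.16 to 81.0 against 92.1 to 284 (-1.94, SE 0.34). PAX7 and PAX5 were the 2 diencephalic, midbrain and hindbrain genes that rose. HOX genes were low, summing to 2.83 to 20.1 CPM in 3DMono, the highest in Vehic 2, and 1.28 to 3.61 in 2DMono. HOXA3 and HOXB3 were called higher in 3DMono. Choroid plexus genes, from an epithelium next to the roof plate, were uneven: their summed level was 70.0 to 1070 CPM in 3DMono and 395 to 989 in 2DMono, and 2 of 8 rose and 4 fell. Among the 4 were OTX2 and LMX1A, also counted with the diencephalic, midbrain and hindbrain genes, and RSPO2, also counted with the WNT genes. TTR, the transthyretin carrier, had 1.45 to 145 CPM in 3DMono and 0.470 to 3.12 in 2DMono, so its rise (4.84, SE 0.82) came with overlapping tags and a wide spread within 3DMono, and the call was lost with the Vehic tags alone. HTR2C, a serotonin receptor of that epithelium, had 29.6 to 643 against 53.9 to 145 CPM (1.84, adjusted p = 0.0205), and this call was lost with a replicate block and without any 1 of 4 tags.

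Of 15 pan-neuronal genes 3 rose and 3 fell (median -0.20), of 18 synaptic vesicle and active zone genes 4 rose and 2 fell (median 0.16), and of 17 postsynaptic genes 1 rose and 2 fell (median 0.14), where 17.5% of all genes rose and 20.4% fell. MAP2, the dendritic microtubule protein, had 1265 to 1791 CPM against 1196 to 1595 (0.02, SE 0.11, adjusted p = 0.879). The growth cone protein gene GAP43 (-0.88, SE 0.12) and the neuronal transcription factor MYT1L (-0.88, SE 0.11) were lower, and the filament gene INA (1.20, SE 0.24, lost with the Vehic tags alone) and tubulin TUBB3 (1.00, SE 0.20) higher. SYN2, a synapsin, had 22.1 to 50.8 against 74.5 to 124 CPM (-1.29, SE 0.14), HOMER1, a postsynaptic scaffold, 77.0 to 86.6 against 171 to 252 (-1.22, SE 0.10), and GRIN2A, an NMDA receptor subunit of maturing synapses, 24.0 to 33.7 against 77.2 to 142 (-1.91, SE 0.16). RAB3A, VAMP2 and SYP were among the 4 synaptic vesicle and active zone genes that rose, and GRIN1 was the 1 postsynaptic gene that rose. Of 14 cortical glutamatergic genes 5 rose and 2 fell (median 0.27), and the vesicular transporters went opposite ways, with SLC17A6 lower (-1.58, SE 0.25) and SLC17A7 higher (1.24, SE 0.25, overlapping). Of 17 GABA-A and glycine receptor genes 8 fell and 1 rose (median -0.33): the glycine receptor subunit GLRA2 fell (-1.79, SE 0.24), and GABRA3 rose (1.20, SE 0.14). Of 16 sodium and potassium channel genes 6 fell and 3 rose (median -0.27). KCNJ6, an inward rectifier opened by G proteins, had 17.0, 18.8 and 30.7 CPM as lowest, median and highest in 3DMono and 165, 194 and 264 in 2DMono (-3.33, SE 0.16, adjusted p = 2.56e-09), whereas KCNH7, an ERG-type channel, rose (0.99, SE 0.19). PENK, the enkephalin precursor gene, was low and fell, at 0.258 to 1.75 against 2.32 to 9.83 CPM (-2.95, SE 0.34).

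To compare like cells, tags were summed again within cells chosen by markers. The neuron gate took cells with at least 5 of 8 neuronal markers and at most 3 of 8 progenitor markers, 2655 3DMono and 1729 2DMono cells with median counts of 15005 and 13604. The progenitor gate took cells with at least 5 of the 8 progenitor markers and at most 2 neuronal ones, 476 3DMono and 361 2DMono cells with median counts of 19710 and 29789. Tags with under 20 cells in a gate, 2DMono AcDop 1 and 3DMono AcMor 2 for progenitors, were left out, so 5 tags of each format remained there. The glutamatergic and GABA-marked subsets below lost 2DMono Vehic 2 and rest on 5 2DMono and 6 3DMono tags. The gates also hold counts of genes of other cell types: COL1A1, which neurons should lack, had a count in 22.4% of 2DMono and 13.1% of 3DMono neuron-gate cells, and SYT1, a neuronal gene, in 67.6% and 48.5% of progenitor-gate cells. Whether free RNA, doublets or mixed cells gave these counts was not tested. COL1A1 does not stand for all mesenchymal genes. Of 9 tested in neuron-gate cells 3 were higher and 1 lower in 3DMono (median 0.42), against 11.3% and 15.4% of all genes.

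Neuron-gate cells differed in 4614 of 17263 genes, 26.7%, with 11.3% higher and 15.4% lower. Of 16 cholesterol synthesis genes 8 were higher and none lower, and in the glutamatergic and GABA-marked subsets 7 and 1 were higher. In the whole neuron gate HMGCS1 was at 121 to 219.7 against 57.9 to 91.7 CPM (1.16, SE 0.14, adjusted p = 1.41e-05). Of 16 FGF genes 8 were lower and 2 higher, including SPRY4 (-2.05, SE 0.25) and DUSP6 (-1.69, SE 0.31). Of 18 immediate early genes 5 were higher, among them FOS (1.30, SE 0.15) and EGR1 (1.33, SE 0.15), and 2 lower, among them NR4A1 (-1.14, SE 0.21). In the GABA-marked subset 1 of 14 was higher and 2 were lower. Genes of the YAP and TAZ list were lower in 5 of 11 cases with 0 higher, and adhesion genes lower in 7 of 18 with 1 higher. Of 19 matrix genes 4 were higher and 2 lower, and the part of other cell types in this, given the mesenchymal counts above, was not tested. Of 17 GABA-A and glycine receptor genes 7 were lower and 1 higher, and GLRA2 had 12.8, 25.8 and 58.6 CPM as lowest, median and highest in 3DMono and 137, 231 and 295 in 2DMono (-2.97, SE 0.29, adjusted p = 1.51e-05). SYN2 (-1.44, SE 0.12), HOMER1 (-1.39, SE 0.11), GAP43 (-0.86, SE 0.11, lost with the Vehic tags alone) and KCNJ6 (-3.47, SE 0.16) fell as in the summed tags. Synaptic vesicle and active zone genes were higher in 2 and lower in 5 of 18, and postsynaptic genes in 1 and 3 of 17. In the glutamatergic subset these counts were 4 and 2, and 4 and 1. In the GABA-marked subset they were 0 and 5, and 0 and 4.

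Among the genes with low fold changes within neuron-gate cells, ZNF680 and LSP1P4 are described further on. SEMA3C, a secreted guidance cue, had 28.7, 36.7 and 42.4 CPM as lowest, median and highest in 3DMono and 861, 1304 and 2181 in 2DMono (-5.18, SE 0.21, adjusted p = 5.68e-10). NR3C2, the mineralocorticoid receptor, had 5.65 to 23.5 against 338 to 942 CPM (-5.07, SE 0.41), and PLPP4, a lipid phosphatase, 0.402 to 3.12 against 38.6 to 60.4 (-5.28, SE 0.28). UNC5D, a netrin receptor family member (-3.99, SE 0.25), and NXPH1, a neurexin ligand (-3.63, SE 0.23), were named after their values were seen. In the other direction stood KLHL14, a Kelch-family gene, with 27.7 to 67.1 CPM against 0 to 6.12 (4.72, SE 0.42), and NR2F1, with 13.1 to 25.2 against 0 to 3.83 (3.27, SE 0.33). Within the neuron gate, cells with glutamatergic transporter counts differed in 2549 of 13356 genes (19.1%, with 8.75% higher and 10.3% lower) and cells with GABA-synthesis enzyme counts in 1685 of 12674 (13.3%, with 4.28% higher and 9.01% lower). In all, 7 of 14 GABA-A and glycine receptor genes were lower in the GABA-marked cells and 1 of 15 in the glutamatergic cells, a contrast that was not itself tested.

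Progenitor-gate cells differed in 4011 of 11938 genes, 33.6%, with 16.1% higher and 17.5% lower. YAP list, adhesion and matrix genes were again mostly lower. Of each list, 11 of 13 YAP and TAZ genes, 15 of 18 adhesion genes and 11 of 19 matrix genes were lower, and 0, 1 and 2 were higher. CALD1 had 95.7, 104 and 129.8 CPM as lowest, median and highest in 3DMono and 1528, 2365 and 2866 in 2DMono (-4.27, SE 0.19, adjusted p = 4.33e-10). CCN2 had 1.07 to 6.11 against 49.3 to 378 CPM (-6.38, SE 0.65, lost with the Vehic tags alone), and COL1A1 a median of 13.4 against 808 with no overlap (-5.57, SE 0.70). COL1A1 had a count in 66.2% of 2DMono and 11.98% of 3DMono progenitor-gate cells. Such shares pool the cells of all tags, also those left out of the fit, and have no spread between tags. Of the 361 2DMono cells 215 were from Vehic 1, and of the 476 3DMono cells 244 from AcMor 1. The 2DMono cells also had higher median counts, which can raise such shares. GFAP, with 1.91 to 10.7 against 67.5 to 228 CPM (-3.81, SE 0.39), and ALDH1L1, with 0 to 3.82 against 16.4 to 37.1 (-4.64, SE 0.48), were lower here as well. They belong to the astrocyte list, of which 8 genes were tested in this gate, 4 being lower and 2 higher (median -1.4). Markers of other cell types moved with these lists: 3 of 6 mesenchymal genes (median -1.52) and 3 of 6 choroid plexus genes (median -2.32) were lower, with 0 and 1 higher. CLIC6, a choroid plexus channel gene, had a count in 21.9% of 2DMono and 1.26% of 3DMono progenitor-gate cells. The part of such cells in these results was not tested. Since SOX9, SLC1A3 and other gate markers are shared with astrocytes, the gate does not separate radial glia from astrocytes.

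Of 15 radial glia genes tested in progenitor-gate cells 7 were higher in 3DMono, 2 lower and 6 not called (median 0.79). This list shares genes with the gate's markers, among them HES1, NES and SOX3, so its counts are not independent of how the cells were chosen. Of 8 outer radial glia genes 5 rose and 2 fell, ITGB5 (-2.98) and the cytokine receptor gene IL6ST (-0.65). MOXD1 had 143 to 288 CPM against 5.54 to 23 (4.15, SE 0.26, adjusted p = 1.43e-08), PTN 834 to 1766 against 129.6 to 306 (2.62, SE 0.23), and HOPX 19.1 to 44.0 against 0 to 13.2 (2.44, SE 0.52). GLI3 had 1257, 1868 and 2049 CPM as lowest, median and highest in 3DMono and 261, 358 and 460.2 in 2DMono (2.35, SE 0.18, adjusted p = 9.84e-08), within a Hedgehog list of which 6 of 8 rose and none fell. SFRP1 (5.65, SE 0.66), EMX1 (3.36, SE 0.32) and NR2F1 (3.14, SE 0.32) rose with no overlap. Of 15 cell cycle genes 8 rose and none fell, with CCNA2 at a median of 26.9 against 9.86 CPM (1.60, SE 0.36, overlapping, lost with the Vehic tags alone). AURKB (1.65, SE 0.47, adjusted p = 0.0154) lost its call without any 1 of 3 tags and with a replicate block. TXNIP, a thioredoxin inhibitor that glucose induces, had 36.7 to 95.5 against 0 to 2.30 CPM (5.36, SE 0.35), and GRIP2, a glutamate receptor scaffold, 116 to 197 against 0 to 9.19 (4.98, SE 0.28).

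Whether the format difference itself differed between gates was tested per tag with limma, as the progenitor-gate minus the neuron-gate difference in 10 tags. It did for 2057 of 14723 genes (14%), 6.76% with a higher and 7.21% with a lower 3DMono difference among progenitors. The count fell to 661 without 2DMono AcDop 2 and to 1123 and 1246 without 3DMono AcMor 1 and 3DMono Vehic 1. Adhesion genes had a more negative difference in progenitors in 11 of 18 cases, matrix genes in 8 of 19 and BMP and TGF-beta genes in 9 of 15, while cell cycle genes had a more positive one in 9 of 15. In neuron-gate cells 4 of 15 cell cycle genes were lower in 3DMono and 0 higher (median -0.52). COL1A1 (-5.37, adjusted p = 0.00358), DKK2 (-4.82, adjusted p = 0.00637), MOXD1 (4.46, adjusted p = 0.00276) and SFRP1 (3.53, adjusted p = 0.0122) were among the genes that passed the limma test. HMGCS1 (0.53, adjusted p = 0.292), NR2F1 (-0.39, adjusted p = 0.561) and ZNF680 (-0.11, adjusted p = 0.91) did not pass this test. Of all 11779 genes tested in both gates, 308 (2.61%) were called in opposite directions. Of the 51 genes named in either gate and tested in both, 8 were, and 7 of these 8 had been named as a list member not called in all cells, so their share is set by that choice. LIFR, the leukaemia inhibitory factor receptor, had 44.9 to 75.6 against 82.5 to 367 CPM among neurons (-1.60, SE 0.23) and 288 to 519 against 62.0 to 179 among progenitors (1.79, SE 0.27). LHX2, a cortical selector gene, was higher in 3DMono progenitors (1.85, SE 0.20) and lower in neurons (-0.53, SE 0.17), the last call being lost in 11 of 23 alternatives.

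**Figure D3:**
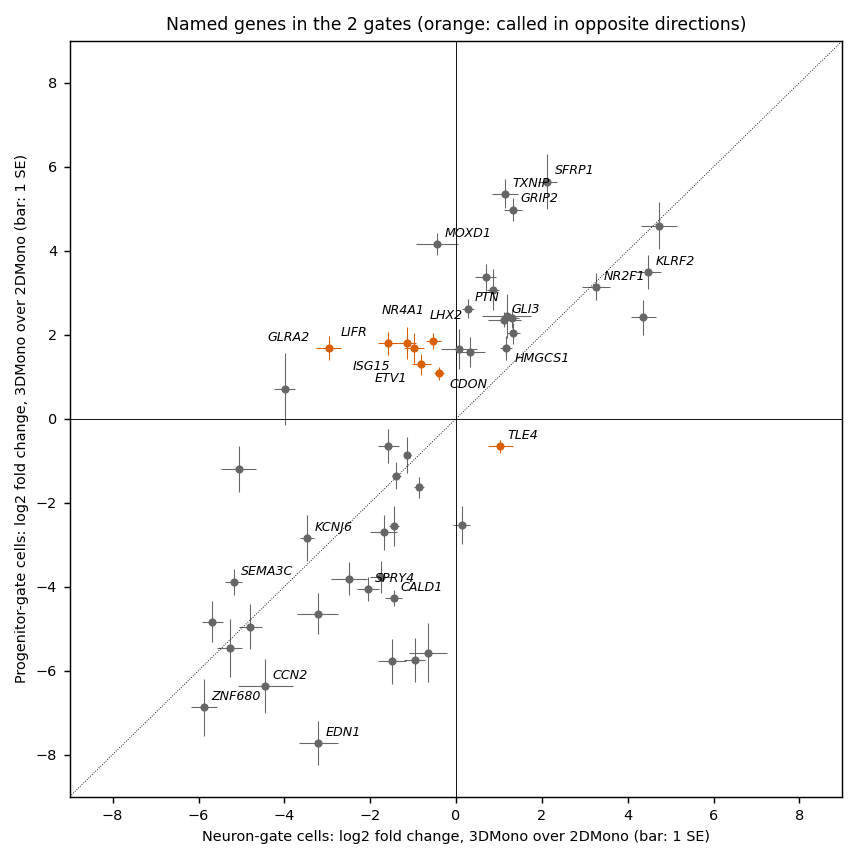
Log2 fold change of 3DMono over 2DMono in neuron-gate cells (horizontal) and progenitor-gate cells (vertical) for 51 named genes, with bars of 1 SE and a dotted line of equality. Orange points are the 8 genes called in opposite directions, such as GLRA2 at -2.97 and 1.68. CALD1 and MOXD1 lie far from the line, NR2F1 and ZNF680 near it.

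No gene was called for a format difference that depended on the treatment name. In a model with a format-by-treatment term edgeR called 0 of 22671 genes (0%), with 557 at an unadjusted p under 0.05, and DESeq2 called 7. Without a filter on low counts edgeR called 202. On simulated data of the same size this test recovered 3% of 2-fold and 31% of 4-fold changes, so most effects of those sizes were not detectable.

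Some genes with the greatest fold changes were near 0 in one format. ZNF680, a KRAB zinc finger gene at chr7:64519884-64563106 (GRCh38, minus strand), had 0.172, 0.252 and 0.474 CPM as lowest, median and highest in 3DMono and 16.9, 22.0 and 24.3 in 2DMono (-6.31, SE 0.19, adjusted p = 1.21e-10). It showed the same separation in neuron-gate cells, with 0 to 0.734 against 15.1 to 25.4 CPM. ZNF736, the neighbour 165024 bases away at chr7:64307459-64354860 on the plus strand, had 0.172 to 0.813 against 12.5 to 20 CPM (-5.31, SE 0.28). The loss was not general to the stretch: of 7 protein-coding genes tested within 500 kb, these and ZNF107 (-0.31, SE 0.09) were lower, and ZNF138, ZNF273, ZNF117 and ERV3-1 were not called. ZNF248 on chromosome 10 (-4.88, SE 0.22) and the pseudogene LSP1P4 (-5.57, SE 0.19) were also near 0 in 3DMono, the last being uncertain because reads of a pseudogene may be shared with its parent. SLC15A1, a peptide transporter (-5.99, SE 0.31), ATP10A, a lipid flippase (-4.96, SE 0.24), and ALPK2, a kinase (-4.95, SE 0.49, lost with the Vehic tags alone), were also among the lowest fold changes. Among genes with at least 20 CPM in the higher format and no overlap, the highest were KLHL14 (4.43, SE 0.35), the cadherin CDH7 (4.35, SE 0.29), SPATA16 (3.83, SE 0.25), LINC01478 (3.76, SE 0.30), SFRP1, PWRN4 (3.29, SE 0.32), VWA5B1 (3.13, SE 0.27), KLHL1 (3.03, SE 0.27), GRIP2 (2.97, SE 0.13) and NR2F1.

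Levels in the other culture arrangements of the matrix differed from gene to gene in whether they divided by format. In CPM without the further scaling used above, ZNF680 was at 0.180 to 3.59 in the 10 tags named 3DFusi and at 0.138 to 0.514 in the 6 tags of 2 other 3-D protocols. A single 3DFusi tag set the upper limit of 3.59, the rest being at most 0.666. ZNF680 was at 8.54 to 22.5 in the 12 2DCocu tags, 21.5 to 22.1 in 2DProto2Fjo and 8.86 to 10.03 in 2DProto3Wu, but at 1.07 to 1.21 in the 2 tags of 2DProto4Nic. ZNF736 was at 0.214 to 0.283 in 2DProto4Nic, within its 3DMono range of 0.189 to 0.902, so across protocols it did not divide by format. ZNF248 was at 2.81 to 3.41 in 2DProto4Nic, and LSP1P4 stayed high there, at 19.9 to 20.6. KLRF2 and CLEC2A, lectin-like genes that lie 2840 bases apart at chr12:9881489-9895833 and chr12:9898673-9932381, were higher in 3DMono neuron-gate cells (4.47, SE 0.30, and 4.36, SE 0.29). With all cells of a tag summed, as in the levels given here, the differences were 2.605 (SE 0.187) and 2.057 (SE 0.225). KLRF2 nevertheless reached 71.5 to 78.0 CPM in 2DProto3Wu and was as low as 4.25 in a tag of 3DProto2Xia. Its level over all cells thus did not divide by format across protocols, whose neuron-gate cells were not examined. CCN2 ran from 3.92 to 67.0 CPM in 3DFusi and from 10.1 to 39.7 in 2DCocu, which overlap, and was at 3.23 in both 2DProto3Wu tags but as high as 27.9 in 3DProto1For.

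For several other genes 3DFusi and 2DCocu tags divided as the monocultures did, but the tags of the other protocols did not. Between 3DFusi and 2DCocu, CD44 was at 8.17 to 43.95 against 85.8 to 158 CPM and SPRY4 at 4.59 to 18.8 against 20.9 to 36.1. KLHL14 was at 7.69 to 23.1 against 1.43 to 3.99 CPM, GRIP2 at 20.6 to 85.3 against 7.59 to 12.4, and SFRP1 at 26.6 to 143 against 4.20 to 7.23. GLI3 at 221 to 681 against 149 to 235 CPM, SPATA16 at 0.962 to 18.1 against 1.12 to 3.66, and CALD1 at 94.8 to 311 against 196 to 418 overlapped. In the other protocols GLI3, higher in 3DMono, was at 760.2 to 765 CPM in 2DProto4Nic and at 143 to 235 in the 6 tags of the 3DProto names. CD44, lower in 3DMono, was at 2.70 to 3.39 CPM in 2DProto3Wu and at 9.56 to 31.8 in the 3DProto tags. SPRY4 was at 9.46 to 13.7 CPM in the 6 tags of the 2DProto names and reached 23.2 in 3DProto1For. KLHL14 was at 23.1 to 23.8 CPM in 2DProto2Fjo and at 2.72 to 11.2 in the 3DProto tags, and SPATA16 at 1.52 to 3.79 in the 3DProto tags, within the 1.98 to 5.93 of the 2DProto tags or below. GRIP2 reached 58.6 CPM in 2DProto3Wu and 44.1 in the 3DProto tags, and SFRP1 42.9 in 2DProto4Nic against 26.6 to 67.6 in the 3DProto tags. CALD1 was at 124 to 383 CPM in the 2DProto tags and at 82.9 to 178 in the 3DProto tags, which overlap.

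**Figure D4:**
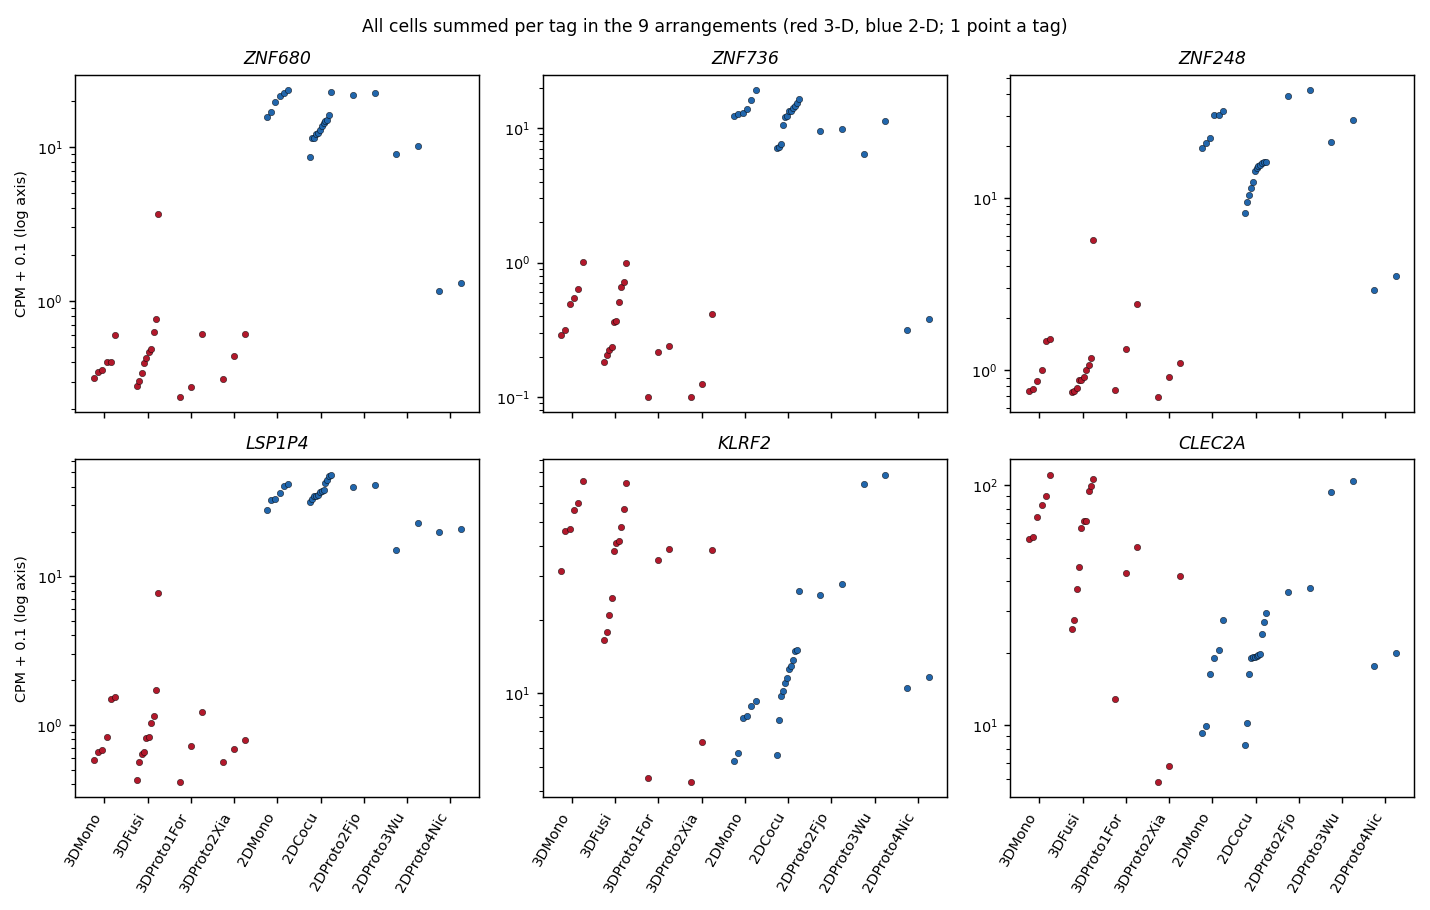
CPM plus 0.1 (log axis) of 6 genes with all cells of a tag summed, 1 point a tag, in 4 3-D (red) and 5 2-D (blue) culture arrangements. ZNF680, ZNF736, ZNF248 and LSP1P4 are low in most 3-D tags and high in most 2-D tags. In 2DProto4Nic, ZNF680 is at 1.07 to 1.21 CPM, ZNF248 at 2.81 to 3.41 and ZNF736 at 0.214 to 0.283, the last within its 3DMono range. KLRF2 and CLEC2A are high in 3DMono and also in 2DProto3Wu.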

How the data were processed

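Expected counts per gene and cell were deposited by the authors; the submitters' processing notes name Salmon 1.7.0, alevin, Seurat 4.1.1 and hg38. Of the matrix entries 54.32% were whole. Per the labels, polyA RNA of the H1 line was barcoded by split-pool. Here, counts were summed per tag (12 tags of 6 and 6) and rounded, giving 4693413 to 58777178 counts per tag. edgeR 4.0.16 (R 4.3.3) used TMM scaling, filterByExpr, a robust quasi-likelihood fit with treatment name as covariate, and a threshold of 0.05. CPM used TMM-scaled library sizes except across arrangements and in summed lists. A count in a cell is an entry of at least 0.5, and shares of cells with a count of a gene pool the cells of all tags of a format. The gate difference used limma 3.58.1 with a prior count of 2 and was chosen after seeing the data; DESeq2 1.42.0 was an alternative. Doublets were not called; leaving out the 5% of cells with the most counts was tried. Of monoculture cells, 1476 share a barcode combination with a cell of another sublibrary, where it marks another cell, and 0 within one.

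The members and gene lists (42 lists, 610 genes) were chosen with earlier results of these data known. Named genes were the 10 highest and lowest in all cells and 5 in each gate (no overlap, same sign in each treatment, at least 20 CPM in the higher format), the 3 called members at each end of a list with its most abundant uncalled member, and the 6 genes with the lowest interaction p; not all are printed. No tags were merged: chi-square per degree of freedom between same-group tags was 7.57 to 122, which sums over different cells exceed in any case, so it does not show separate cultures. On simulated counts the all-cell test recovered 67% of 2-fold and 100% of 4-fold changes, with 8 false calls in 21358 genes. Alternatives were DESeq2, RLE scaling, no filter, a replicate block, no treatment term, a fold threshold of 1.5, Vehic tags only, other gates, thinning to 5000 counts, and each tag left out.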

Additional observations from a re-analysis of the deposited data

Results flagged for a closer look

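Among 240 groups of 6 tags, 23 had a tag apart from the other 5 by Dixon's ratio, and chance alone gives about 1 in 20 groups. The median count per cell reached 21680 in 3DMono AcMor 1, and the mitochondrial share 5.14% in 2DMono Vehic 1. 2DMono AcDop 2 was apart for 6 genes: the matrix genes HSPG2 (252 CPM), LAMB2 (89.1) and LTBP2 (215), the AP-1 gene FOSL2 (88.95) and TTR (3.12) were highest there among 2DMono tags, and the WNT antagonist SFRP1 (3.66) lowest. In 2DMono Vehic 1 ACTA2 (54.1 CPM), AQP4 (3.14) and GAS1 (3.59) were highest. In 2DMono AcDop 1 VCAN (682 CPM) and HOMER1 (252.5) were highest and GLI1 was at 0.

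Among 3DMono tags, PTN (731 CPM) and PENK (1.75) were highest and FOSL1 (0.802) lowest in Vehic 1. GREM1 (1.00 CPM) and ALPK2 (14.02) were highest in Vehic 2, the tag with the high muscle sum. MAP2 (1791 CPM) and ZNF680 (0.474) were highest and CDH7 (37.2) lowest in AcMor 2, and TUBB3 (92.1 CPM) was highest in AcMor 1.

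For 8 named genes the format difference was called in both gates with opposite signs, as for 308 of all 11779 genes tested in both (2.61%). Of the 8, 7 had been named as list members not called in all cells, a choice that favours opposite signs, so limma's test of the difference between gates, which all 8 passed, adds little to it. As progenitor-gate minus neuron-gate log2 difference, these were GLRA2 (4.55, adjusted p = 0.00118), the nuclear receptor gene NR4A1 (3.71, adjusted p = 0.0125), LIFR (3.42, adjusted p = 0.00619) and the interferon-induced ISG15 (3.29, adjusted p = 0.0183). The others were the transcription factor ETV1 (2.55, adjusted p = 0.00624), LHX2 (2.39, adjusted p = 0.00372), the Hedgehog co-receptor CDON (1.52, adjusted p = 0.0102) and the corepressor TLE4 (-1.44, adjusted p = 0.031). The neuron-gate calls of LHX2, CDON, TLE4, ETV1 and ISG15 were lost in 11, 6, 5, 3 and 2 of 23 alternatives, and the progenitor-gate calls of TLE4, NR4A1 and ISG15 in 2, 1 and 1 of 20.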

How the results depend on the processing

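Counts of calls in all cells stayed within 1.5 times 8297 with DESeq2, RLE scaling, no filter, no treatment term, without the deepest 5% of cells and without each tag (7184 to 8275). Against a fold of 1.5 they were 2914 in all cells, 1351 in neuron-gate, 821 in glutamatergic, 573 in GABA-marked and 2159 in progenitor-gate cells. With Vehic tags only they were 3247, 1304, 601, 469 and 1773, from 2 tags against 2 except in the glutamatergic and GABA-marked cells, where 1 2DMono tag, assumed to vary like the others, stood against 2. The share of calls higher in 3DMono was 46.2% in all cells, 30.6% against the fold of 1.5 and 34.2% with Vehic tags only; without a filter it was 53.4% in neuron-gate cells against 42.4%. A gate of 6 markers gave 1575 calls in glutamatergic and 583 in GABA-marked cells, where the minimum of 20 cells left 4 and 2 2DMono tags against 6 and 4; for progenitors it could not be fitted. The interaction gave 202 calls without a filter and 7 with DESeq2. The gate difference gave 661 to 1750 calls when each tag was left out.

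Same-numbered tags did not pair across formats (correlations of deviations 0.21, -0.13 and 0.14 in Vehic, AcDop and AcMor tags). With the replicate number as a block, 8580 genes were called in all cells, 4906 in neuron-gate, 2534 in glutamatergic, 1714 in GABA-marked and 3743 in progenitor-gate cells. Among named genes the block ended the calls of HTR2C in all cells, TLE4 in neuron-gate and AURKB in progenitor-gate cells.

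Small differences without a call changed sign. The progenitor share, -0.43 percentage points, became 0.431 without the deepest 5% of cells, 1.34 with 6 markers, 0.2204 with cells thinned to 5000 counts and -2.36 to 1.51 without each tag. The median count per cell became -424.1 over the cells with at least 5000 counts, taken before thinning, and -1970.0 to 2091 without each tag, detected genes ranged from -207 to 473, and the glutamatergic share from -0.150 to 5.16 points. The log2 fold change of MKI67 was -0.0614 with Vehic tags only, -0.0461 without the deepest cells and -0.0276 to 0.0862 without each tag, and that of MAP2 -0.0437 to 0.0854. Among 112 genes named in all cells, 29 lost a call in at least 1 of up to 21 alternatives, 22 of them with Vehic tags only. Genes below about 1 CPM rest on few counts in the shallowest tags.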
